A study of Mus musculus with 12 samples.

Results

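The transcripts described here are those of 10 enzymes that act on profilaggrin, on filaggrin or on the amino acids released from it: Casp14, Blmh, Padi1, Padi2, Padi3, Padi4, Asprv1, Hal, St14 and Prss8. They were chosen by gene symbol, not by their values, and all 10 were listed among the 14533 genes of the count table. RNA was sequenced from dorsal skin of 12 mice, 6 wild-type (WT) and 6 Pparg-/-epi. All mice were C57BL/6 and carried floxed Pparg on both alleles. WT mice lacked Cre, and Pparg-/-epi mice carried a Cre allele under the keratin 14 promoter, which acts in basal keratinocytes and in the epithelia that grow from them, including hair follicle and sebaceous gland. Each library came from the skin of a single untreated mouse, with 3 females and 3 males among the WT and 4 females and 2 males among the Pparg-/-epi mice, aged 8 to 13 weeks in both groups by the labels, from which the ages in the study's supplement differ for some mice. Non-lesional skin was frozen and scraped down to the vessels under the epidermis, so the RNA held epidermis, follicles and some superficial dermis.

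Profilaggrin is stored in the keratohyalin granules of the granular layer and is cut into filaggrin as the cell turns into a corneocyte. Membrane serine proteases and an aspartic protease act in the cutting, peptidylarginine deiminases convert arginines of filaggrin to citrulline and loosen it from keratin, and cysteine proteases then break it down to free amino acids. Those amino acids and their products, such as urocanic acid and pyrrolidone carboxylic acid, form the natural moisturizing factor that holds water in the stratum corneum.

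Of the 10 transcripts, 3 were altered in Pparg-/-epi skin and all 3 were higher. These were the caspase Casp14 (3.51-fold), the aspartic protease Asprv1 (1.81-fold) and the bleomycin hydrolase Blmh (1.66-fold). A gene was called altered when its log2 fold change was 0.6 or more in either direction with an adjusted p under 0.05, and 10.3% of all genes met this rule, 5.19% of all genes being altered upward. The membrane proteases St14 and Prss8, the histidine ammonia-lyase Hal and all 4 peptidylarginine deiminases did not pass. The median log2 fold change was 0.79 over the 10 genes and -0.01 over all genes. Among the deiminases Padi4 separated every Pparg-/-epi mouse from 5 of the 6 WT mice and not from WT replicate 2, so the call on it turned on that mouse.

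Promoter sequence is shown for the 3 altered genes and for Padi4, as the 120 bases that end just before the start of transcription in RefSeq (build GRCm38.p6), read 5′ to 3′ on the strand of the gene. Capitals mark the AP-1 motif TGANTCA and the TATA box TATAAA, looked for on both strands and chosen after the sequences had been seen. The Casp14 stretch is chr10:78718294-78718413 on the minus strand, that of Asprv1 is chr6:86628054-86628173 on the plus strand, that of Blmh is chr11:76945536-76945655 on the plus strand, and that of Padi4 is chr4:140774204-140774323 on the minus strand.
Casp14: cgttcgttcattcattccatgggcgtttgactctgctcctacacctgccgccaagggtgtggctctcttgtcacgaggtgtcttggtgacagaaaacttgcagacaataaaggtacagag
Asprv1: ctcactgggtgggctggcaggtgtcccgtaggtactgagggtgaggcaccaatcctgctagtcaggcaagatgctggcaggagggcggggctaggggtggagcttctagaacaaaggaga
Blmh: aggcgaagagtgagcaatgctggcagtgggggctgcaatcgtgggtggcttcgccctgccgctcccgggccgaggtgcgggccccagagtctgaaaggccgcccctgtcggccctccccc
Padi4: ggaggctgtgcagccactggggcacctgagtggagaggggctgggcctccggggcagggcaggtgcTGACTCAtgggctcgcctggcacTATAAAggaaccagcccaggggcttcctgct

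Promoters of 8 of the 10 genes could be searched, over the 250 bases before and 50 bases after the start. The AP-1 motif was found in 3 of the 8 (Padi4, Hal and Blmh, in Blmh after the start), against 7.81% of 32851 mouse promoters of the same length. The TATA box was found in Padi4 and Hal, against 13.6% of all promoters. The AGGTCA unit to which PPAR-RXR dimers bind was in none of the 8 and in 16.3% of all promoters, and its direct repeat with a 1-base spacer was in none of the 8 and in 0.0396% of all. A match of letters is a description of these windows and not a measured binding site. The AP-1 motif and the TATA box were chosen after the sequences had been seen, so their shares are no test.

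The libraries held between 10120840 and 18851255 counts on listed genes. Values are CPM, counts scaled to a common library size after TMM normalization, and 1 count was worth between 0.052 and 0.107 CPM. Counts for Pparg run over the whole gene while the floxed segment covers only its first exons, so they do not check the genotype (2.39 CPM in the median WT and 4.05 CPM in the median Pparg-/-epi mouse, adjusted p = 0.949 by edgeR's quasi-likelihood test). WT replicate 2 stood apart in its makeup. Its 6 suprabasal keratinocyte markers summed to 14934 CPM against 35176 to 44227 CPM in the other WT mice, its 9 inner root sheath and medulla markers to 2219 CPM against 44.8 to 556 CPM, and its 8 sebaceous markers to 2853 CPM against 527 to 1797 CPM. Other WT mice stood apart in other cell types. The 10 skeletal muscle markers summed to 10547 CPM in WT replicate 5, against 15.5 to 343 CPM in the other WT mice. The 6 dermal fibroblast markers summed to 34533 CPM in WT replicate 1, against 1014 to 10471 CPM in the other WT mice. In scraped tissue, more cells of a type and more RNA per cell cannot be told apart. Results are given with and without WT replicate 2 where it moved them. Its RNA integrity number (RIN) was 8.6, against 5.9 to 7.4 in the other WT mice and 5.7 to 8.6 in the Pparg-/-epi mice (medians 6.65 and 7.7). The study calls the WT mice littermates. The first part of each mouse name in the count columns was read here as a breeding number. WT replicate 2 is the only WT mouse that shared this number with a Pparg-/-epi mouse (replicate 10). Without WT replicate 2, genotype and breeding number therefore cannot be told apart.

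Asprv1, on chromosome 6 (chr6:86628174-86629704, mm10), encodes the aspartic protease SASPase of the granular layer, which cuts the linkers of profilaggrin. Its level ran from 1182 to 1592 CPM in WT with a median of 1274 CPM, and from 1641 to 2948 CPM in Pparg-/-epi with a median of 2547 CPM. The groups did not overlap, and the highest WT mouse (replicate 1) lay just below the lowest Pparg-/-epi mouse (replicate 8). The log2 fold change was 0.85 (SE 0.15, 95% interval 0.53 to 1.18, adjusted p = 0.00298 by edgeR). Unlike for several of the other genes, WT replicate 2 at 1251 CPM lay within the other WT mice, and the log2 fold change without it was 0.82.

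Casp14 (chr10:78711995-78718293, minus strand) encodes caspase-14, a caspase of cornifying keratinocytes that cuts filaggrin into smaller fragments. WT mice ran from 281 to 714 CPM with a median of 339 CPM, and Pparg-/-epi mice from 1054 to 1657 CPM with a median of 1459 CPM. The groups did not overlap. The highest WT value belonged to WT replicate 2, and the next WT mouse stood at 430 CPM. The log2 fold change was 1.81 (SE 0.24, 95% interval 1.30 to 2.32, adjusted p = 0.000501 by edgeR). It was 2.04 without WT replicate 2, with an SE of 0.17.

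Blmh (chr11:76945656-76987389, plus strand) encodes bleomycin hydrolase, a neutral cysteine protease that takes citrullinated filaggrin fragments down to amino acids. WT mice ran from 161 to 342 CPM with a median of 283 CPM, and Pparg-/-epi mice from 340 to 549 CPM with a median of 452 CPM. The groups met at their edges, since Pparg-/-epi replicate 8 (340 CPM) lay just under WT replicate 3 (342 CPM). The lowest WT value was that of WT replicate 2. The log2 fold change was 0.73 (SE 0.17, 95% interval 0.37 to 1.09, adjusted p = 0.0117 by edgeR), and without WT replicate 2 it was 0.60, at the edge of the size rule, with an adjusted p of 0.00555 by edgeR.

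Only Asprv1 and Casp14 had groups without overlap among the 10 genes, against 7.9% of all genes. Each of the 3 altered genes stayed altered in all 12 fits that left out a mouse, where the log2 fold change ran from 0.79 to 0.92 for Asprv1, from 1.73 to 2.04 for Casp14 and from 0.60 to 0.80 for Blmh. In the females alone (3 WT and 4 Pparg-/-epi) the log2 fold change was 1.57 for Casp14 (adjusted p = 0.0465 by edgeR), 0.89 for Asprv1 (adjusted p = 0.0768 by edgeR) and 0.88 for Blmh (adjusted p = 0.0985 by edgeR). In the males alone it was 2.10 for Casp14 (adjusted p = 0.0476 by edgeR), 0.87 for Asprv1 (adjusted p = 0.146 by edgeR) and 0.58 for Blmh (adjusted p = 0.246 by edgeR). In the pair that shared a breeding number, WT replicate 2 and Pparg-/-epi replicate 10, Casp14 was 714 and 1425 CPM, Asprv1 1251 and 2740 CPM, and Blmh 161 and 452 CPM, each higher in the Pparg-/-epi mouse. With breeding number added to the fit, the genotype effect rested on that pair alone, and Blmh was altered (log2 fold change 1.49, adjusted p = 0.0378 by edgeR) while Asprv1 (1.13, adjusted p = 0.0693 by edgeR) and Casp14 (1.00, adjusted p = 0.0801 by edgeR) were not.

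**Figure D1:**
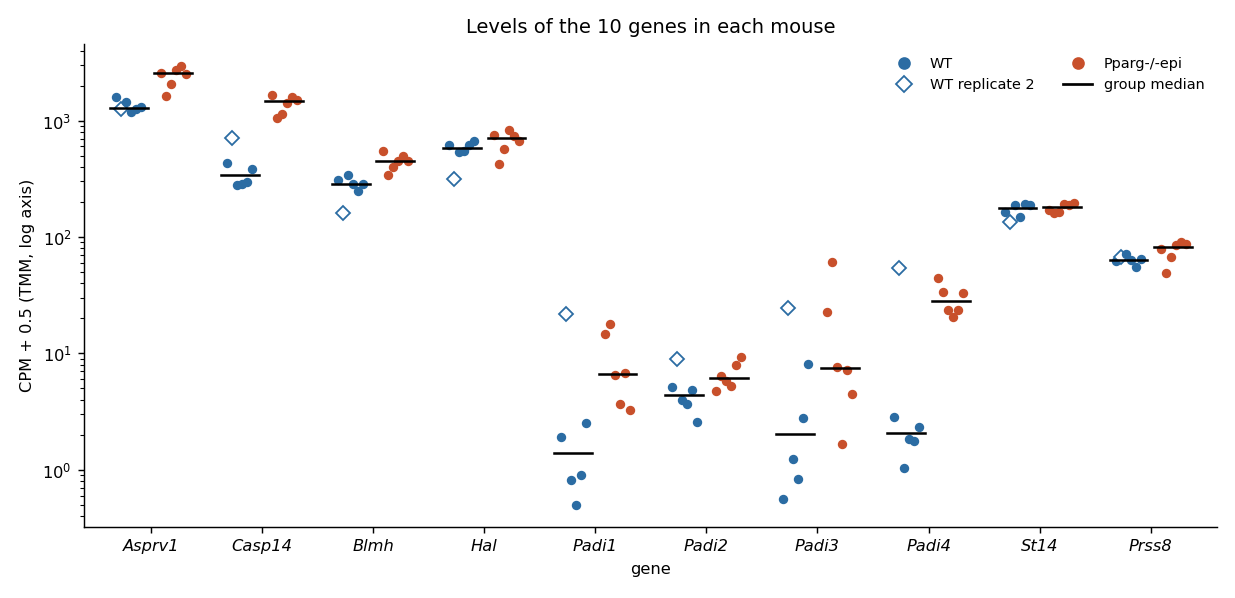
Level of each of the 10 genes in each mouse, as CPM + 0.5 on a log axis, with WT mice in blue, Pparg-/-epi mice in orange, WT replicate 2 as an open diamond and a bar at the median of each group. Asprv1 and Casp14 do not overlap between groups, and the diamond lies at the top of the WT mice for all 4 Padi genes and at the bottom for Blmh, Hal and St14.

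The 4 peptidylarginine deiminases lie side by side within 207 kilobases of chromosome 4 (chr4:140745508-140952586), in the order Padi4, Padi3, Padi1 and Padi2. All read from the minus strand except Padi2. They convert peptidyl-arginine to citrulline. Padi1 and Padi3 are the family members best known from the upper epidermis and, for Padi3, from the inner root sheath and medulla of the hair, where trichohyalin is a substrate. Padi2 is widespread, and Padi4 is best known as the nuclear enzyme of neutrophils, where it citrullinates histones.

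Padi4 ran from 0.533 to 2.36 CPM in 5 WT mice (5 to 37 counts) and stood at 53.2 CPM (1003 counts) in WT replicate 2. In the Pparg-/-epi mice it ran from 20.1 to 43.95 CPM with a median of 27.9 CPM. All 6 Pparg-/-epi mice were above those 5 WT mice and below WT replicate 2. With all 12 mice the log2 fold change was 1.52 (SE 0.94, 95% interval -0.52 to 3.56, adjusted p = 0.314 by edgeR). Without WT replicate 2 it was 4.26 (SE 0.33, 95% interval 3.55 to 4.98, adjusted p = 1.5e-05 by edgeR), a fold of 19.2. The mouse left out held the outlying value, so the SE and p of that fit do not measure the full spread in WT. In that fit the groups also share no breeding number. As a fold, the value over all mice was 2.87. Adding RIN to the fit raised it to 4.71 (adjusted p = 0.0566 by edgeR), and adding age from the labels raised it to 7.69 (adjusted p = 0.0904 by edgeR). With breeding number added it was 0.378 (adjusted p = 0.135 by edgeR). In the fit without WT replicate 2, 15.5% of all genes were altered.

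Padi1 was not detected in WT replicate 4, where a count of 0 allows up to 0.202 CPM, and reached 2.01 CPM in the other WT mice apart from replicate 2, which stood at 21.4 CPM. The Pparg-/-epi mice ran from 2.75 to 17.5 CPM with a median of 6.19 CPM. Again they all lay above 5 WT mice and below WT replicate 2. The log2 fold change was 0.95 with all mice (SE 1.04, adjusted p = 0.599 by edgeR) and 3.26 without WT replicate 2 (SE 0.79, adjusted p = 0.0114 by edgeR). Of the 75-base stretches of Padi1 transcripts, 28.8% also lie, on the opposite strand, in the transcript Gm13032, whose exons overlap its own. The strand setting of the counting was not given in the sources used here, and with counting blind to strand reads from the pair could not be told apart.

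Padi3 was the most variable of the 10 genes within groups. It ran from 0.0639 to 24.3 CPM in WT (median 1.52 CPM, the lowest from a single count), again with WT replicate 2 on top and replicate 6 next at 7.68 CPM. Pparg-/-epi mice ran from 1.16 to 60.3 CPM with a median of 6.95 CPM, and replicate 8 was far above the rest. The groups overlapped throughout, with a fold of 2.84 (SE 1.12 on the log2 scale, adjusted p = 0.412 by edgeR), and Padi3 did not pass without WT replicate 2 either (log2 fold change 2.88, SE 1.11, adjusted p = 0.0807 by edgeR).

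Padi2 was low in every mouse, from 2.08 to 8.49 CPM in WT (median 3.93 CPM) and from 4.21 to 8.76 CPM in Pparg-/-epi (median 5.61 CPM). Its log2 fold change was 0.47 (SE 0.31, adjusted p = 0.349 by edgeR), and 0.76 without WT replicate 2 (SE 0.26, adjusted p = 0.0491 by edgeR), just under the threshold. Of its 75-base stretches, 1.74% lie in transcripts of other genes, the antisense transcript Gm13031 among them.

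The share of each deiminase in the family's CPM differed with them. Padi2 made up 52.4% to 68.8% of the family in WT replicates 1, 3, 4 and 5, and 15.3% in WT replicate 6, where Padi3 led. These shares are not corrected for length (4758 bases for Padi2, 2640 for Padi4). Per length, Padi2 and Padi4 stood at 0.967 and 0.896 RPKM in WT replicate 1. In these 5 WT mice the shares rest on few counts, 5 to 37 for Padi4. Padi4 made up 49.6% in WT replicate 2 and 28.4% to 68.9% in the Pparg-/-epi mice, and it led in each of these except Pparg-/-epi replicate 8, where Padi3 held 51.6%. The log2 ratio of Padi2 to Padi4 averaged 0.46 ± 1.61 in WT and -2.17 ± 0.59 in Pparg-/-epi (SD, n = 6 each), and the difference had an adjusted p of 0.0779 over 6 pairs in a two-sided exact permutation test. Without WT replicate 2 the WT mean was 1.07 and the adjusted p was 0.013 in the same exact test. The other 5 pairs had adjusted p from 0.0844 to 0.807 (exact permutation).

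Markers of the inner root sheath and medulla of the hair follicle varied with Padi3 from mouse to mouse, and this held in both groups. The sum of the 9 markers was 2219 CPM in WT replicate 2 and 1663 CPM in Pparg-/-epi replicate 7, and Padi3 stood at 24.3 and 22.1 CPM in these mice. It was 556 CPM in WT replicate 6 and 490 CPM in Pparg-/-epi replicate 9, with Padi3 at 7.68 and 7.21 CPM. Pparg-/-epi replicate 8 had the highest sum (4665 CPM) and the highest Padi3 of all mice. These 3 mice of highest sum also had the highest RIN values, 8.6 in WT replicate 2, 8.6 in Pparg-/-epi replicate 7 and 8.5 in Pparg-/-epi replicate 8. Over the 12 mice the gene with the profile nearest to that of Padi3 was Tchh, the gene of trichohyalin, with a root-mean-square difference of 0.46 between their centered log2 CPM values, where Padi3 itself varied by 2.00.

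Padi4 did not follow these markers in the same way. At a marker sum of 165 CPM (Pparg-/-epi replicate 10) it stood at 20.1 CPM, and at 155 CPM (WT replicate 3) at 0.533 CPM. With the sum at 556 CPM in WT replicate 6 it was 1.83 CPM, and with sums of 490 and 482 CPM in Pparg-/-epi replicates 9 and 11 it was 23.3 and 23.1 CPM. At the highest sums Padi4 was 53.2 CPM in WT replicate 2 and 43.95 and 33.3 CPM in Pparg-/-epi replicates 7 and 8. Padi1 lay between the patterns of Padi3 and Padi4, at 2.01 CPM in WT replicate 6 and at 6.06 and 6.33 CPM in Pparg-/-epi replicates 9 and 11. None of the 9 hair markers was altered between genotypes with all mice, and 2 of them were higher without WT replicate 2, where 15.5% of all genes were altered. Their level was not even between genotypes, however. The median log2 fold change of the 9 markers was 1.43 with all mice and 2.82 without WT replicate 2. Only Krt75 was below 0, at -1.26 with all mice. The part of these markers in the levels of the Padi genes was not tested. Of 10 neutrophil markers 3 were listed, and they summed to 1.89 to 12.0 CPM in WT mice and 26.3 to 46.5 CPM in Pparg-/-epi, with S100a8 and S100a9, which keratinocytes also express, altered upward. WT replicate 2, with the highest Padi4, had a neutrophil sum of 6.10 CPM, among the other WT mice. Its Csf3r, the remaining listed marker, was the highest in WT at 2.55 CPM, with the next at 2.05 CPM. Its 8 macrophage and leukocyte markers summed to 750 CPM, the highest of all mice. That sum was 148 to 372 CPM in the other WT mice and 255 to 461 CPM in Pparg-/-epi. The part of leukocytes in the Padi4 level was not tested.

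**Figure D2:**
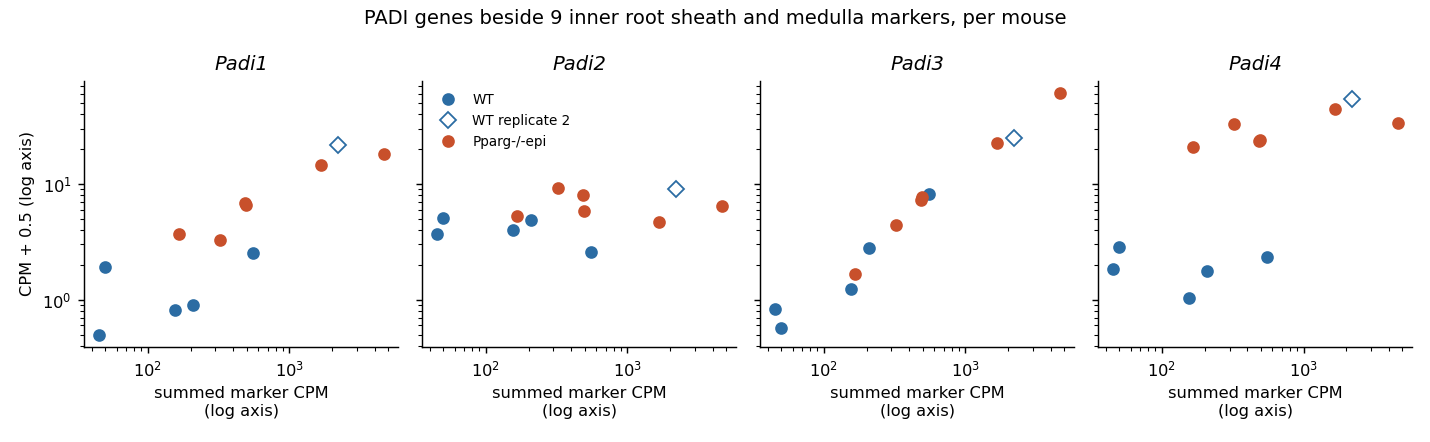
Level of each Padi gene (CPM + 0.5, log axis) against the summed CPM of 9 inner root sheath and medulla markers (log axis), with a point per mouse, WT in blue, Pparg-/-epi in orange and WT replicate 2 as an open diamond. Mice of both genotypes follow the same course for Padi3, while Padi4 is above 20 CPM in all 6 Pparg-/-epi mice and below 3 CPM in all WT mice but replicate 2. The WT mice below 3 CPM have marker sums of 44.8 to 556 CPM. WT replicate 2, at 2219 CPM, is the only WT mouse with a higher sum.

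Hal (chr10:93488768-93516743, plus strand) encodes histidine ammonia-lyase, which turns free histidine into urocanic acid. It ran from 316 to 668 CPM in WT (median 581 CPM) and from 426 to 822 CPM in Pparg-/-epi (median 707 CPM). WT replicate 2 was the lowest of all mice, and the groups overlapped. The log2 fold change was 0.27 (SE 0.19, 95% interval -0.14 to 0.69, adjusted p = 0.384 by edgeR), and 0.14 without WT replicate 2. With breeding number added Hal was altered, at 1.38 (adjusted p = 0.0453 by edgeR).

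St14 (chr9:31088590-31131799, minus strand) encodes matriptase and Prss8 (chr7:127925717-127930113, minus strand) encodes prostasin, membrane-anchored serine proteases that activate each other and are needed for profilaggrin processing. St14 ran from 134 to 190 CPM in WT (median 176 CPM) and from 159 to 194 CPM in Pparg-/-epi (median 180 CPM), with a log2 fold change of 0.07 (SE 0.10, 95% interval -0.15 to 0.29, adjusted p = 0.696 by edgeR). A rise beyond 0.29 on the log2 scale was outside that interval. With breeding number added, however, the log2 fold change of St14 was 0.50, uncalled, with a 95% interval of 0.03 to 0.97. Prss8 ran from 54.3 to 71.2 CPM in WT (median 63.2 CPM) and from 48.2 to 90.1 CPM in Pparg-/-epi (median 81.5 CPM). In Prss8, 4 Pparg-/-epi mice were above every WT mouse and replicate 8 was below all of them, and the log2 fold change was 0.25 (SE 0.14, 95% interval -0.04 to 0.55, adjusted p = 0.246 by edgeR). Of its 75-base stretches, 2.53% are shared with the overlapping gene Kat8 on the other strand.

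**Figure D3:**
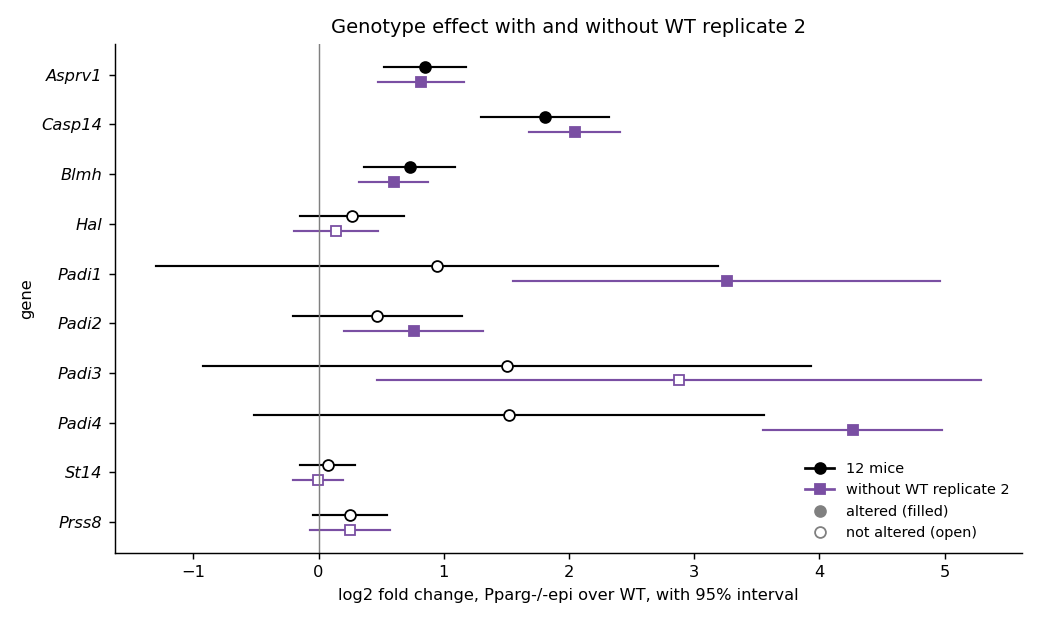
Log2 fold change of each gene, Pparg-/-epi over WT, with its 95% interval from edgeR, for all 12 mice (black circles) and without WT replicate 2 (purple squares), filled where the gene was altered. Without that mouse Padi4 moves from 1.52 to 4.26 and Padi1 from 0.95 to 3.26, while Asprv1, Casp14 and Blmh move by less than 0.3.

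Per kilobase of transcript (CPM per kilobase, here RPKM), the order of the WT medians was Asprv1 at 832, Hal at 211, Casp14 at 145, Blmh at 120, St14 at 43.9, Prss8 at 34.0, Padi2 at 0.826, Padi4 at 0.60, Padi3 at 0.495 and Padi1 at 0.240 RPKM. Asprv1 was above Hal, Blmh above St14, and Prss8 above Padi2 in every WT mouse, as their ranges did not overlap. The ranges of the other neighbors in that order overlapped. In Pparg-/-epi mice Casp14 stood at a median of 626 RPKM, above Hal at 256 RPKM, and Padi4 at 10.6 RPKM, above the other deiminases, of which Padi3 was next at 2.27 RPKM.

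To set the enzymes beside the differentiated keratinocytes of the same library, each was divided by the mean (on the log2 scale) of the suprabasal keratins Krt1 and Krt10. Relative to them the Casp14 ratio was higher in Pparg-/-epi by 1.23 on the log2 scale (adjusted p = 0.238 over 10 genes, two-sided exact permutation test), and none of the 10 ratios passed. WT replicate 2, with its low keratins, had the highest ratio among the WT mice for all 10 genes. Without it the log2 difference was 1.75 for Casp14, 0.50 for Asprv1 and 3.62 for Padi4, each with an adjusted p of 0.00722 in the exact permutation test, and 2.35 for Padi1 with an adjusted p of 0.0325 in the same exact test. The reference moved as well, with a log2 fold change of 1.02 for Krt1 (SE 0.39, adjusted p = 0.101 by edgeR) and -0.02 for Krt10.

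Against the filaggrin-type substrates Flg2 and Hrnr, whose products resemble filaggrin, the enzymes split into 3 kinds. Casp14 was higher relative to them, by 1.12 on the log2 scale (adjusted p = 0.0379, exact permutation). Hal, St14 and Prss8 were lower relative to the mean of the 2 references. Their log2 differences were -0.48, -0.67 and -0.53, each with an adjusted p of 0.0216 in the exact permutation test. The log2 differences of Blmh and Asprv1 were -0.01 and 0.08 and did not pass, and neither did those of the 4 deiminases, of which Padi4 was at 2.38 (adjusted p = 0.0779, exact permutation). Without WT replicate 2 Padi4 passed at 3.33 (adjusted p = 0.00722, exact permutation) and Padi1 at 2.05 (adjusted p = 0.0289, exact permutation). The reference was itself uneven, since Hrnr was altered upward (log2 fold change 1.57, SE 0.30, adjusted p = 0.0046 by edgeR) and Flg2 was not (-0.14, SE 0.21). The log2 fold changes of Hal (0.27), St14 (0.07) and Prss8 (0.25) lay below that of Hrnr and above that of Flg2. These 3 were therefore not lower relative to Flg2 alone, and ratios to a single reference were not tested. Hal passed in all 12 tests that left out a mouse, St14 in 11, Prss8 in 10 and Casp14 in 3. St14 was lost without Pparg-/-epi replicate 7 and Prss8 without Pparg-/-epi replicate 7 or 8, all at an adjusted p of 0.0505 (exact permutation). Casp14 kept its call only without WT replicate 2 or Pparg-/-epi replicate 10 or 12, and reached an adjusted p of 0.0812 (exact permutation) without any other WT mouse. Flg itself was not among the genes listed in the count table and could not be analysed.

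**Figure D4:**
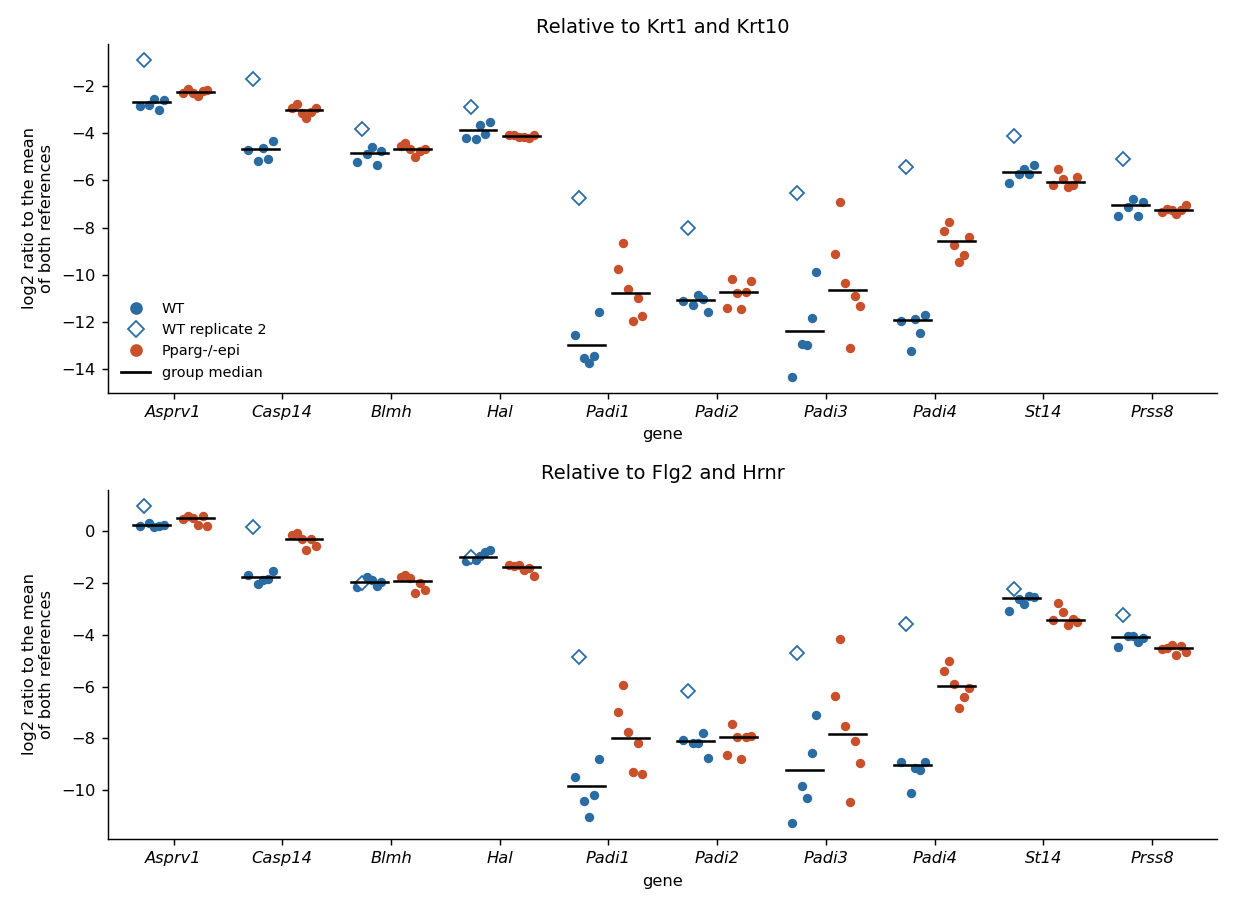
Log2 ratio of each gene to the mean of Krt1 and Krt10 (top) and of Flg2 and Hrnr (bottom), with a point per mouse, WT in blue, Pparg-/-epi in orange, WT replicate 2 as an open diamond and a bar at the group median. In the bottom panel the Hal ratios lie from -1.14 to -0.73 in WT and from -1.72 to -1.30 in Pparg-/-epi mice, without overlap.

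The genotype effect on the 10 genes was also compared between sexes. By edgeR's quasi-likelihood test 0 of the 10 genes differed at an adjusted p under 0.05 and 0 at an unadjusted p under 0.05, and by its likelihood ratio test 0 and 1 did. Padi4 came nearest, with an effect 3.47 larger in males on the log2 scale (SE 1.58, adjusted p = 0.895 by edgeR), and WT replicate 2 is among the females.

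Other genes of the pathway were read from 5 lists. Over all genes, 10.3% were altered with all mice (5.19% upward) and 15.5% were altered without WT replicate 2. Of 7 listed substrates and envelope proteins 2 were higher and 0 lower. These were Hrnr, given above, and Ivl, the gene of involucrin, at 294 to 365 CPM in WT and 522 to 790 CPM in Pparg-/-epi mice (log2 fold change 1.00, SE 0.11, adjusted p = 0.000232 by edgeR). Lor, the gene of loricrin and the most abundant of the list per length, had a log2 fold change of -0.06 (SE 0.26). The median log2 fold change of this list was 0.85 with all mice and 1.41 without WT replicate 2, where 4 were higher. Rptn and Crnn were the added ones. They stood at 200 and 78.4 CPM in WT replicate 2, against at most 133 and 8.31 CPM in the other WT mice.

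Of 16 other proteases of the upper epidermis 4 were higher and 0 lower, with a median log2 fold change of 0.52. The kallikreins Klk6 and Klk13 had log2 fold changes of 2.99 (SE 0.53) and 1.83 (SE 0.41), the membrane protease Prss27 1.35 (SE 0.22) and the proprotein convertase Furin 0.76 (SE 0.20). Furin lost its call in 3 of the 12 fits without a mouse, those without WT replicate 4 or Pparg-/-epi replicate 7 or 9 (highest adjusted p = 0.0621 by edgeR). Klk7, the chymotryptic kallikrein of desquamation and the most abundant of the list, had a log2 fold change of 0.44 (SE 0.20, adjusted p = 0.157 by edgeR). Without WT replicate 2, 7 of the 16 were higher. Klk10, Tmprss11e and Ctsd were the added ones, at log2 fold changes of 3.13, 3.45 and 0.77. They stood at 456, 65.5 and 1006 CPM in WT replicate 2, against at most 51.7, 5.18 and 596 CPM in the other WT mice.

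Among 6 protease inhibitors 0 were altered with all mice and 1 was higher without WT replicate 2. That gene was Cst6, with a log2 fold change of 1.61 with all mice and 2.59 without WT replicate 2. Cst6 stood at 2416 CPM in WT replicate 2, at most 527 CPM in the other WT mice, and 1710 to 2678 CPM in Pparg-/-epi. Spink5, the gene of the kallikrein inhibitor LEKTI and the most abundant of them, stood at 3056 ± 859 CPM in WT against 2175 ± 594 CPM in Pparg-/-epi (SD, n = 6 each, log2 fold change -0.49, SE 0.23, adjusted p = 0.176 by edgeR). Of 8 genes of amino acid and moisturizing factor metabolism 1 was higher and 1 lower. Ggct, the gene of gamma-glutamylcyclotransferase, which forms pyrrolidone carboxylic acid, was higher (log2 fold change 0.85, SE 0.23, adjusted p = 0.0261 by edgeR), and lost its call in 4 of 12 fits without a mouse, those without WT replicate 4 or Pparg-/-epi replicate 10, 11 or 12. Arg1, the gene of arginase, was lower (log2 fold change -1.79, SE 0.42, adjusted p = 0.0128 by edgeR).

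Of 6 targets and partners of matriptase and prostasin 2 were higher and 0 lower. Epcam, the most abundant of them, stood at 190 ± 40.5 CPM in WT against 391 ± 22.9 CPM in Pparg-/-epi (SD, n = 6 each, log2 fold change 1.04, SE 0.12, adjusted p = 0.0003 by edgeR), while the sodium channel subunit Scnn1b had a log2 fold change of 0.98 (SE 0.25) and lost its call without Pparg-/-epi replicate 7 (adjusted p = 0.0504 by edgeR). Beside these, the 9 listed granular layer markers summed to 5934 to 10769 CPM in WT and 6210 to 12990 CPM in Pparg-/-epi, with 3 of 9 altered upward. Hrnr and Ivl, also counted among the substrates and envelope proteins, are among these 3.

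**Figure D5:**
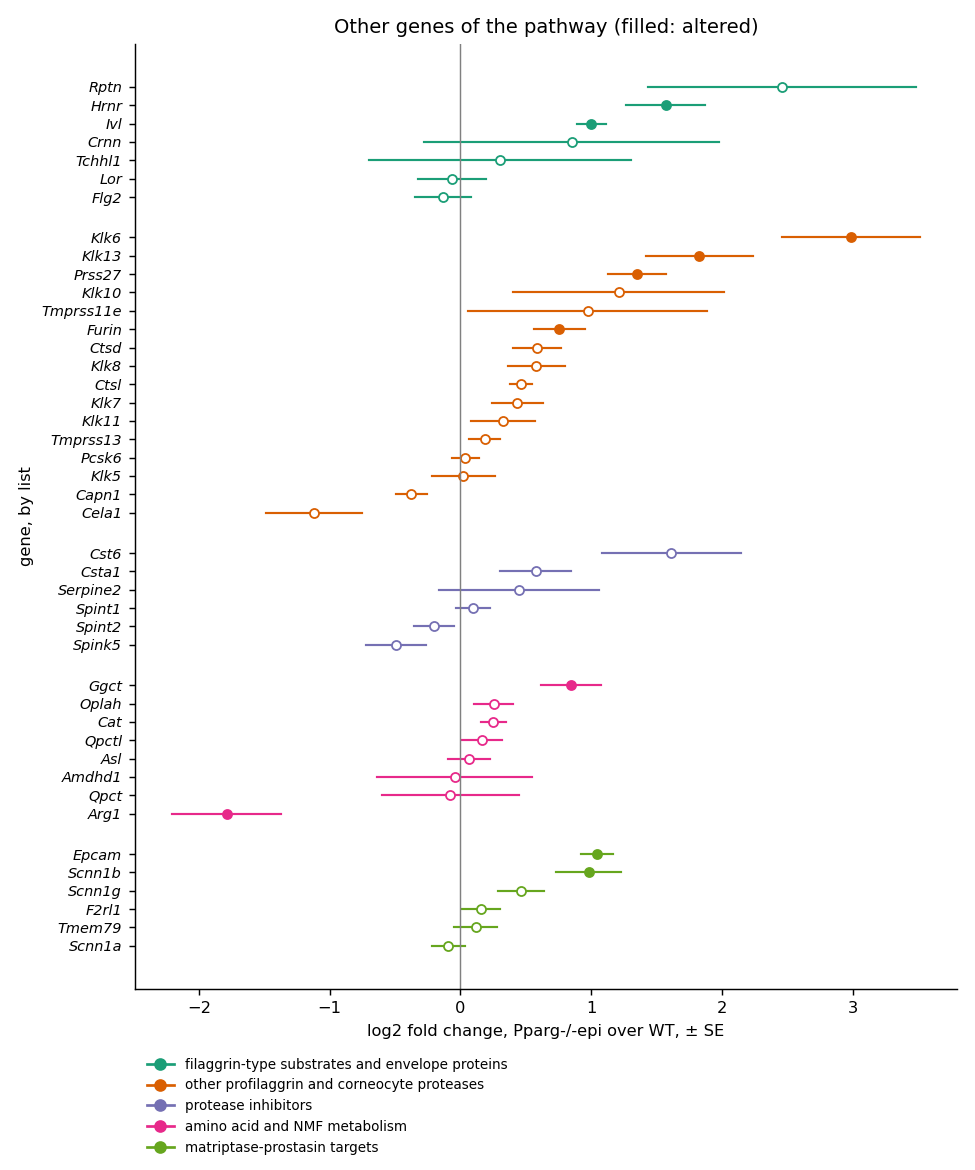
Log2 fold change, Pparg-/-epi over WT, of the other genes of the pathway in 5 lists by color, with bars of 1 SE and filled points where the gene was altered. Of the 10 altered genes 9 lie to the right of 0, and Arg1 lies to the left.

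The genes whose profile over the 12 mice was nearest to that of each altered enzyme were named by the root-mean-square difference of centered log2 CPM. For Casp14 they were Krt7 (0.28), Abhd12b (0.28) and Btbd19 (0.30), where Casp14 itself varied by 1.01. For Asprv1 they were Ndufa4l2 (0.13), Dusp14 (0.15) and Pnpla1 (0.16), where Asprv1 varied by 0.47. For Blmh they were Il1f5 (0.15), Trex2 (0.17) and Pnpla1 (0.20), where Blmh varied by 0.47. Among the 10 enzymes themselves Blmh and Asprv1 were the nearest pair (0.24), followed by St14 and Prss8 (0.25). St14 itself varied by only 0.16 and Prss8 by 0.26, so the distance of that pair was about as large as their own variation.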

How the data were processed

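Per the labels and the study's methods, the authors mapped reads to mm10 with STAR, set aside low-quality and multiply mapped reads, and assigned the rest to genes with featureCounts. The deposited values are raw counts. Rows without a gene name (2800) were left out, and no filter was added because each gene already exceeded 0.5 CPM in 6 or more mice. After TMM scaling, genotype alone was fitted to all 14533 genes by quasi-likelihood (edgeR 4.0.16 under R 4.3.3), and p-values were adjusted over all of them (Benjamini-Hochberg). Tested on counts simulated for 6 against 6 mice and 14533 genes, it called 65 of 100 genes given a log2 fold change of 1, 90 of 100 given 2, and 9 of 14333 given none. Ratios within a library used CPM by total counts with a pseudocount of 0.5 CPM and exact permutation tests over mice. Coordinates are those of the count table, and shared 75-base stretches came from GENCODE transcripts. Genes, lists and tests were chosen with earlier results of these data known.

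Every one of the 10 enzymes was named. From each pathway list the altered genes (at most the 4 with the largest change) and the most abundant gene per length were named, and for each altered enzyme the 3 genes of nearest profile. Pathway genes altered only without WT replicate 2 were named as well. DESeq2 1.42.0, other scalings, covariates, single sexes and fits without a mouse were the alternatives. P-values measure the spread between these mice, and limits from a count of 0 (3 counts) cover counting error only. Libraries were tied to mice by the numbers and names in the labels and the run sheet of the study.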

Additional observations from a re-analysis of the deposited data

Results flagged for a closer look

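In 20 groups of 6 values (10 genes in 2 genotypes), 6 held a mouse set far from the others of its group, where chance gives about 1 in 20 for normally distributed values. CPM are skewed, and on the log2 scale 2 of the 6 remained, Padi4 and Hal in WT replicate 2. On the CPM scale WT replicate 2 was that mouse in 5 of the 6. It was the highest WT mouse for Padi4 (53.2 CPM, next 2.36 CPM), Padi1 (21.4 CPM, next 2.01 CPM), Padi3 (24.3 CPM, next 7.68 CPM) and Casp14 (714 CPM, next 430 CPM), and the lowest for Hal (316 CPM, next 541 CPM). In Pparg-/-epi mice, Padi3 of replicate 8 stood at 60.3 CPM with the next at 22.1 CPM. Both mice held the highest inner root sheath and medulla marker sums of their groups, 2219 CPM in WT replicate 2 and 4665 CPM in Pparg-/-epi replicate 8. The part of follicle content in these values was not tested.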

How the results depend on the processing

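Casp14 stayed altered in 22 of 23 alternative fits, Blmh in 20 and Asprv1 in 19. Asprv1 and Blmh both lost the call in the females alone, the males alone, and without the 4 WT mice of a breeding number that no Pparg-/-epi mouse shared, where their log2 fold changes were 0.78 and 0.95. In each of these 3 fits 1 of the 10 enzymes was altered, against 651, 18 and 389 of all genes and 4, 0 and 3 genes of the pathway lists (added after seeing the data). The last fit left WT replicates 1 and 2 as the only WT mice and turned the sign of Padi1 (-0.43) and Padi2 (-0.10), neither called. With breeding number as a term (added after seeing the data), where the genotype effect rested on WT replicate 2 and Pparg-/-epi replicate 10, Casp14 and Asprv1 lost the call, 2 enzymes (Blmh and Hal), 238 of all genes and 4 pathway genes were altered, and Padi1 (-2.76), Padi2 (-0.84), Padi3 (-4.37) and Padi4 (-1.40) turned sign, uncalled. Leaving out each mouse gave 3 to 6 altered enzymes, 1116 to 2249 altered genes and 8 to 16 altered pathway genes, the highest always without WT replicate 2, where the uncalled St14 was at its lowest (-0.0029, highest 0.11 without WT replicate 5). The same fits gave 0 to 2 Padi ratios, 0 to 4 enzymes relative to Krt1 and Krt10, 1 to 6 relative to Flg2 and Hrnr, and 0 sex differences. Uncalled differences that changed sign among them ran from -0.12 to 0.62 for Padi1 over Padi3, from -0.0099 to 0.29 for Blmh and from -0.33 to 0.38 for Padi2 relative to Krt1 and Krt10, and from -0.065 to 0.071 for Blmh and from -0.43 to 0.085 for Padi2 relative to Flg2 and Hrnr. In females alone 0 enzymes passed relative to Flg2 and Hrnr, with the lowest unadjusted p of 0.0286 for Hal and Prss8 (adjusted p 0.143, exact permutation), the smallest that 3 against 4 mice allow. There Blmh turned to 0.13, and relative to Krt1 and Krt10 Blmh turned to -0.19 and Asprv1 to -0.24, none of them called. DESeq2 gave Padi4 no adjusted p. With 10 counts required in every mouse Padi1, Padi3 and Padi4 were not tested. No paired analysis was possible because WT and Pparg-/-epi mice share no replicate number and only 1 breeding number. Padi1, Padi3 and Padi4 rested on as few as 0, 1 and 5 counts in a WT mouse.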
